A study of Mus musculus with 12 samples.

Results

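The genes described here are the 7 cyclin-dependent kinase (CDK) inhibitors and the 3 D cyclins of the mouse, 10 of the 54532 genes counted, taken by name through the Ensembl identifiers of the count data. The inhibitors are *Cdkn1a* (p21), *Cdkn1b* (p27) and *Cdkn1c* (p57) of the Cip/Kip family and *Cdkn2a* (p16Ink4a), *Cdkn2b* (p15), *Cdkn2c* (p18) and *Cdkn2d* (p19Ink4d) of the Ink4 family. *Cdkn2a* also encodes p19Arf, which is not an Ink4 inhibitor. The D cyclins are *Ccnd1*, *Ccnd2* and *Ccnd3*. RNAseq was performed on 12 samples of brainstem progenitors from C57BL/6 Nestin TVA; p53 floxed pups of postnatal days 3 to 5, cultured without serum in EGF and FGF2. The cells had been infected with RCAS vectors, avian viruses that enter only cells carrying the tv-a receptor, which is driven here by the nestin promoter. There were 4 groups of 3 samples: ACVR1 WT, ACVR1 R206H, ACVR1 WT + H3.1K27M and ACVR1 R206H + H3.1K27M. ACVR1 is a BMP type I receptor whose R206H mutation occurs in diffuse intrinsic pontine glioma, and H3.1K27M is the histone mutation that accompanies it there. All 4 groups carried floxed p53 alleles and a human ACVR1 vector. No Cre is named for these samples, and no group had an empty vector or wild-type H3.1, so that H3.1K27M and the presence of a further virus cannot be told apart. The share of infected cells is not given in the sources used here.

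D cyclins bind CDK4 and CDK6 and start the phosphorylation of the retinoblastoma protein, which releases E2F factors and lets a cell pass from G1 into S phase. Ink4 inhibitors bind CDK4 and CDK6 and displace the D cyclins, while Cip/Kip inhibitors bind whole cyclin-CDK complexes, above all those of CDK2. *Cdkn1a* is a textbook target of p53, and the locus of *Cdkn2a* and *Cdkn2b* is a textbook target of Polycomb repression, the silencing by H3K27 methylation that K27M histones disturb.

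*Cdkn2a* gives rise to 2 proteins from 1 gene, and a count per gene does not separate them. The summed inhibitor levels below therefore hold the transcripts of both. Its transcripts join different first exons to the same second exon (GENCODE M21, GRCm38, minus strand, chr4:89276645-89276985), which p16Ink4a and p19Arf read in different frames. The first exon of the p16Ink4a transcript, Cdkn2a-201, is at chr4:89281986-89282192, and that of the p19Arf transcript, Cdkn2a-202, at chr4:89294334-89294653. Their coding sequences are 504 and 507 bases long. The 30 bases across each junction are shown because they hold the point where the transcripts become alike, with the first exon in lower case and the shared second exon in capitals.
Cdkn2a-201: cgtaccccgattcagGTGATGATGATGGGC
Cdkn2a-202: ggaatcctggaccagGTGATGATGATGGGC

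RefSeq promoter windows (GRCm38.p6, from 250 bases before to 50 bases after a transcript start) were given for 7 of the 10 genes, in 11 windows. Of these, the windows of *Cdkn2a*, whose promoters share 1 count, and those of *Cdkn1a* and *Cdkn1b*, the inhibitors called in opposite directions with H3.1K27M in both ACVR1 backgrounds below, are shown. The words searched on both strands were 4 forms of the E2F site (TTTCCCGC, TTTCGCGC, TTTGCCGC and TTTGGCGC), the E-box CACGTG and the BMP SMAD word GGCGCC, with matches in capitals. In the list of all 32851 windows, 2.26% held an E2F word, 7.15% the E-box and 11.9% the SMAD word.
Cdkn2a, p19Arf start (chr4:89294570-89294869, minus strand): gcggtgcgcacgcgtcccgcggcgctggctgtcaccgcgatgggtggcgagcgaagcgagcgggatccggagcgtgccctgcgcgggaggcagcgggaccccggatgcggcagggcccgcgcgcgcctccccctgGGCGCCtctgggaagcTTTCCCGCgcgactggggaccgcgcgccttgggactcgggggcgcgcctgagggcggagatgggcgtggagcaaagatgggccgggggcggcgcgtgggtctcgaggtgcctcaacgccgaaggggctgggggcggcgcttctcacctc
Cdkn2a, p16Ink4a start (chr4:89282143-89282442, minus strand): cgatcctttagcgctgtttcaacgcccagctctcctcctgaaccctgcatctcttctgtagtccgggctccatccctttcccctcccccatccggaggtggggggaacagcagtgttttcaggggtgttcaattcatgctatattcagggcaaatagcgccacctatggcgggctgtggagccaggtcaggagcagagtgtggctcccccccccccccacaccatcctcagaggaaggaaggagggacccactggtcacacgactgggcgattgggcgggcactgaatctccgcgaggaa
Cdkn1b (chr6:134920151-134920450, plus strand): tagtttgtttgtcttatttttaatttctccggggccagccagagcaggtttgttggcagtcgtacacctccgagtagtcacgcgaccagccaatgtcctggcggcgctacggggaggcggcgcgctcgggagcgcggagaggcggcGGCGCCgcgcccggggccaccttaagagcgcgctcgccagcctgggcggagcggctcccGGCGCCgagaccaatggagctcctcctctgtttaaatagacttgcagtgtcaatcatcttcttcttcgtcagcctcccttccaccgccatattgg
Cdkn1a, upstream start (chr17:29090729-29091028, plus strand): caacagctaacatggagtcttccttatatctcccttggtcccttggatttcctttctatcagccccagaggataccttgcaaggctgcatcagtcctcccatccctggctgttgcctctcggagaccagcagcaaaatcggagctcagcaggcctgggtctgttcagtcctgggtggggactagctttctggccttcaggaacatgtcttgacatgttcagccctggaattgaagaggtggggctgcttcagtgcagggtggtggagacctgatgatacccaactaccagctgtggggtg
Cdkn1a, downstream start (chr17:29093519-29093818, plus strand): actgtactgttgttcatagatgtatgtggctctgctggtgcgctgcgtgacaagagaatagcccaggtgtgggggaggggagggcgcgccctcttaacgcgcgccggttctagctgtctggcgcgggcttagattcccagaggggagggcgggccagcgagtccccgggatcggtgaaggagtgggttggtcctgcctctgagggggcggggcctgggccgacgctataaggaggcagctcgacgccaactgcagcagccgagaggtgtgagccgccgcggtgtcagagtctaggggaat
The p19Arf window held the E2F word at -99 and the SMAD word at -115 from the start, and 45 CpG pairs, against 12 CpG pairs and no match in the p16Ink4a window. The *Cdkn1b* window held the SMAD word at -104 and -45 and 30 CpG pairs. The *Cdkn1a* windows held none of these words, with 2 and 23 CpG pairs, and the median over all windows was 7 CpG pairs. Sites of p53 were not among the words searched. Of the windows not shown, the SMAD word stood in 1 of *Cdkn2c* at -12, that of *Cdkn2d* at 20 and 1 of *Ccnd3* at 18, the E-box stood in the other *Cdkn2c* window at 35, and that of *Cdkn2b* and the other of *Ccnd3* held no match. The SMAD word itself holds a CpG, and the windows with it had 22 to 45 CpG pairs. The shares over all windows are not matched for CpG content, so that no enrichment can be read from them.

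The total count per sample was 19315020 to 26456257, and all 10 genes passed the filter of a mean count of 10 in every comparison. Levels are given as CPM (counts scaled to a common library size, after TMM normalization), and levels of different genes are compared only after division by the length of their exons (CPM per kb). The 3 ACVR1 WT samples stood apart from each other: the biological coefficient of variation over all genes was 0.275 in this group and 0.059, 0.050 and 0.045 in ACVR1 R206H, ACVR1 WT + H3.1K27M and ACVR1 R206H + H3.1K27M. A proliferation score, the mean of log2 CPM over 97 genes of S and G2/M phase centred on the 12 samples, was 0.84, -0.65 and -1.46 in ACVR1 WT replicates 1, 2 and 3. It was 0.38, 0.12 and 0.36 in ACVR1 R206H, 0.21, 0.21 and 0.16 in ACVR1 WT + H3.1K27M, and -0.05, -0.02 and -0.10 in ACVR1 R206H + H3.1K27M. *Mki67*, *Pcna* and *Top2a*, which dividing cells express, were at 340, 221 and 559 CPM in ACVR1 WT replicate 1, at 92.9, 80.5 and 163 CPM in replicate 2 and at 31.3, 64.1 and 59.6 CPM in replicate 3. Over the other 9 samples they ran from 127 to 273 CPM, 111 to 157 CPM and 227 to 403 CPM. ACVR1 WT therefore held both the highest and the lowest score, and results with this group that changed their call without replicate 1 are given below with and without it.

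Neural progenitor markers (*Nes*, *Sox2*, *Vim*, *Fabp7*, *Msi1* and *Sox9*) summed to 4044 to 5855 CPM, with none of the 6 at 0. Astrocyte markers summed to 3722 to 12105 CPM in ACVR1 WT, 6002 to 6931 CPM in ACVR1 R206H, 3656 to 3750 CPM in ACVR1 WT + H3.1K27M and 4876 to 5067 CPM in ACVR1 R206H + H3.1K27M. *Gfap*, the filament protein of astrocytes, was at 346, 1421 and 2677 CPM in ACVR1 WT replicates 1, 2 and 3, the reverse of the order of the proliferation score. Oligodendrocyte lineage markers summed to 2381 to 3295 CPM in the 6 samples without H3.1K27M and 3480.2 to 4226 CPM in the 6 with it, and ependymal markers to 29.6 to 54.0 CPM and 65.9 to 80.5 CPM. Fibroblast and mural markers summed to 2.06 to 3.30 CPM without H3.1K27M and 5.24 to 9.59 CPM with it, and microglial markers to 3.23 to 11.99 CPM and 1.31 to 3.29 CPM. Of the microglial markers *Csf1r* was at 0.90 to 5.43 CPM without H3.1K27M and at most 0.14 CPM with it, whereas *P2ry12* was at 0.88 to 1.31 CPM in ACVR1 R206H and 1.58 to 2.51 CPM in ACVR1 R206H + H3.1K27M. Endothelial markers summed to at most 5.50 CPM and neuronal markers to at most 44.6 CPM. Neuronal sums were 13.4 to 15.9 CPM in ACVR1 WT + H3.1K27M and 25.5 to 31.6 CPM in ACVR1 R206H + H3.1K27M, though *Snap25* was lower in the latter. Endothelial sums there were 1.81 to 2.58 and 3.30 to 5.50 CPM. Between these groups 4 of 5 astrocyte markers were called higher and 1 lower, and 6 of 7 oligodendrocyte lineage markers lower, beside 20.3% of all genes called. *Id1*, a direct target of BMP signaling, was at 11.9 to 22.0 CPM in ACVR1 WT, 32.4 to 40.4 CPM in ACVR1 R206H, 12.4 to 13.8 CPM in ACVR1 WT + H3.1K27M and 96.5 to 118 CPM in ACVR1 R206H + H3.1K27M, so that every R206H sample lay above every WT sample. The part of these markers and of the score in the results below was not tested, except where a fit with the score is given, and in bulk RNA fewer cells of a type and less RNA per cell cannot be told apart.

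All 3 D cyclins were higher with H3.1K27M, and *Ccnd2* showed the widest difference of the 10 genes. *Ccnd2* was at 683, 143 and 86.5 CPM in ACVR1 WT, 673, 438 and 591 CPM in ACVR1 R206H, 1570.2, 1638 and 1729.9 CPM in ACVR1 WT + H3.1K27M, and 2337, 2195 and 2309 CPM in ACVR1 R206H + H3.1K27M. Every sample with H3.1K27M lay above every sample without it, and with H3.1K27M the R206H samples lay above the WT samples. *Ccnd1* was at 513, 102 and 57.8 CPM in ACVR1 WT, 326, 238 and 341 CPM in ACVR1 R206H, 862, 812 and 918 CPM in ACVR1 WT + H3.1K27M, and 732, 689 and 714 CPM in ACVR1 R206H + H3.1K27M. It too was higher in all 6 samples with H3.1K27M, but there the R206H samples lay below the WT samples. *Ccnd3* was at 50.8, 46.3 and 51.3 CPM in ACVR1 WT, 48.6, 48.4 and 48.4 CPM in ACVR1 R206H, 71.1, 65.1 and 59.7 CPM in ACVR1 WT + H3.1K27M, and 71.5, 64.1 and 67.7 CPM in ACVR1 R206H + H3.1K27M. All 6 samples with H3.1K27M were again the higher ones, and ACVR1 WT replicates 2 and 3, which were low in *Ccnd1* and *Ccnd2*, lay on either side of replicate 1 in *Ccnd3*.

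**Figure D1:**
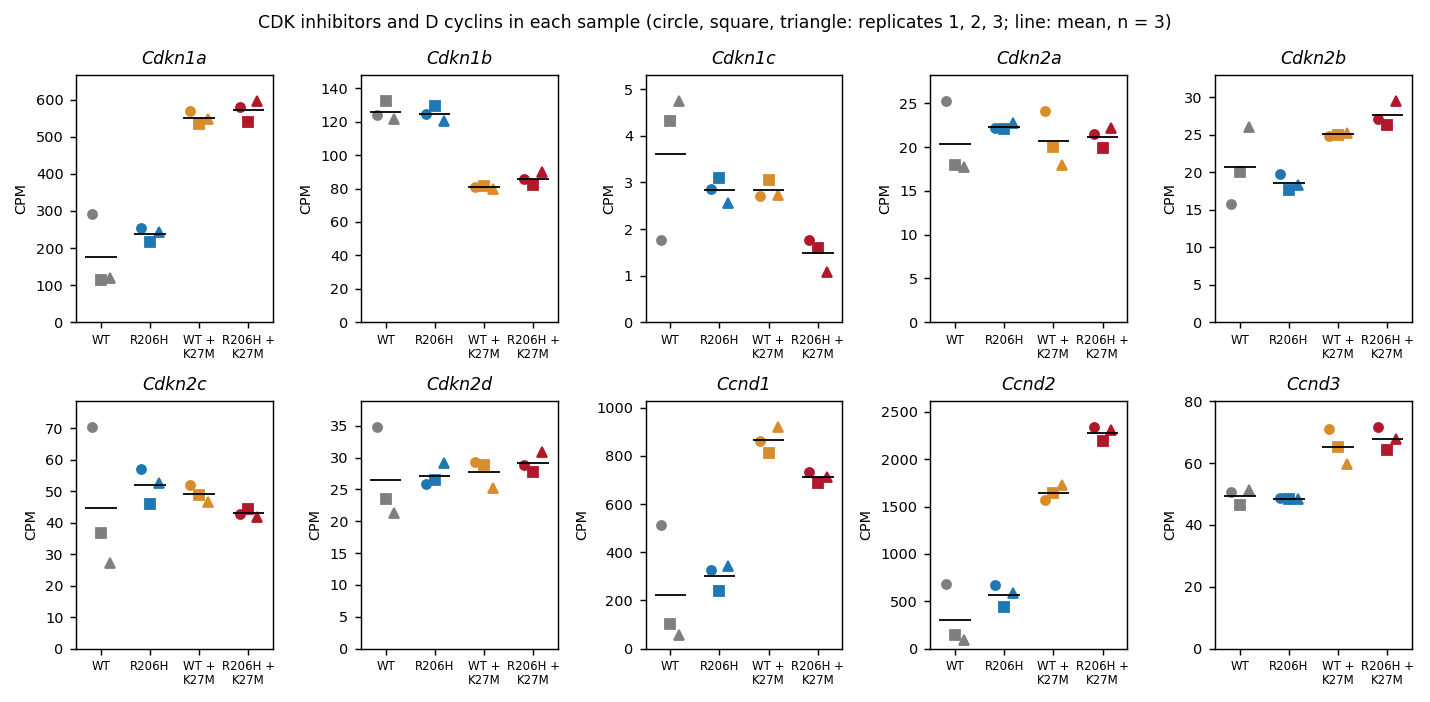
Level in CPM (vertical axes, from 0, a separate scale for each gene) of the 10 genes in the 4 groups (horizontal axes; circle, square and triangle stand for replicates 1, 2 and 3, and the line for the mean of 3). *Cdkn1a*, *Ccnd1*, *Ccnd2* and *Ccnd3* are higher and *Cdkn1b* is lower in all 6 samples with H3.1K27M, and ACVR1 WT replicate 1 stands away from replicates 2 and 3 in *Cdkn1a*, *Cdkn2c*, *Ccnd1* and *Ccnd2*.

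Per length, *Ccnd1* and *Ccnd2* were the main D cyclins in every group and *Ccnd3* was the least. In ACVR1 WT + H3.1K27M, *Ccnd1* was at 184 ± 11 CPM per kb and *Ccnd2* at 175 ± 8.5 CPM per kb (SD, n = 3), levels that overlapped, and *Ccnd3* was at 7.44 ± 0.65 CPM per kb. In ACVR1 R206H + H3.1K27M, *Ccnd2* was at 242 ± 8.0 CPM per kb and *Ccnd1* at 151 ± 4.6 CPM per kb, with no overlap. The summed level of the 3 D cyclins was 366 ± 17 CPM per kb in the first of these groups and 401 ± 13 CPM per kb in the second, against 129.9 ± 24 CPM per kb in ACVR1 R206H and 85.5 ± 88 CPM per kb in ACVR1 WT, whose replicates 1, 2 and 3 were at 187, 42.1 and 27.3 CPM per kb. The share of *Ccnd2* in that sum, a measure added after the levels were seen, was 36.1% ± 2.6, 46.3% ± 2.3, 47.8% ± 1.3 and 60.4% ± 0.21 in ACVR1 WT, ACVR1 R206H, ACVR1 WT + H3.1K27M and ACVR1 R206H + H3.1K27M (SD, n = 3). The *Ccnd2* shares did not overlap in any of the 4 comparisons between groups, each with an exact two-sided permutation p of 0.1, the smallest that 3 samples against 3 allow. In ACVR1 WT replicates 1, 2 and 3 the share of *Ccnd2* was 38.8%, 36.0% and 33.6%, that of *Ccnd1* 58.1%, 51.5% and 45.0% and that of *Ccnd3* 3.09%, 12.5% and 21.4%. With H3.1K27M in ACVR1 WT cells the *Ccnd2* share was 11.7 points higher and the *Ccnd3* share 10.3 points lower (exact permutation p = 0.1 for each), while that of *Ccnd1* differed by -1.40 points (exact permutation p = 0.7). With the length of the longest transcript in place of all exons the *Ccnd2* shares were 36.8%, 48.9%, 51.2% and 63.4%, and the mean of *Ccnd2* was then above that of *Ccnd1* in ACVR1 WT + H3.1K27M (260.1 against 231 CPM per kb), with *Ccnd3* at 16.9 CPM per kb.

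**Figure D2:**
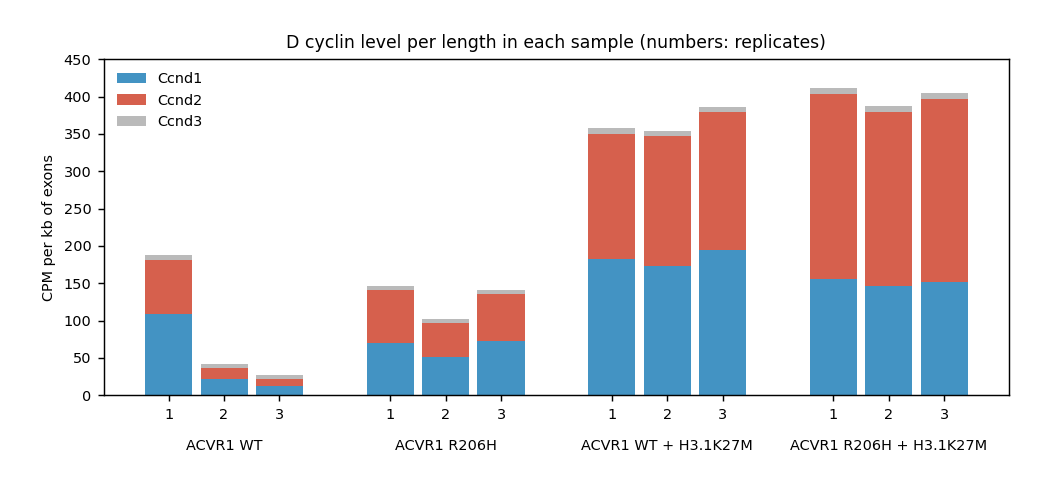
Level in CPM per kb of exons (vertical axis, from 0) of *Ccnd1*, *Ccnd2* and *Ccnd3*, stacked, in each sample (bars, numbered by replicate within the 4 groups). The sum was 366 CPM per kb on average in ACVR1 WT + H3.1K27M and 401 CPM per kb in ACVR1 R206H + H3.1K27M, where the *Ccnd2* part was 60.4% against 47.8%.

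Of the Cip/Kip inhibitors, *Cdkn1a* was higher and *Cdkn1b* lower in the samples with H3.1K27M. *Cdkn1a* was at 292, 114 and 119 CPM in ACVR1 WT, 253, 216 and 244 CPM in ACVR1 R206H, 569.7, 535 and 547 CPM in ACVR1 WT + H3.1K27M, and 579.6, 539 and 596 CPM in ACVR1 R206H + H3.1K27M. The lowest sample with H3.1K27M was 535 CPM and the highest without it 292 CPM. *Cdkn1b* was at 124, 132 and 121 CPM in ACVR1 WT, 125, 129.6 and 120.2 CPM in ACVR1 R206H, 80.8, 81.6 and 79.8 CPM in ACVR1 WT + H3.1K27M, and 85.8, 82.0 and 89.9 CPM in ACVR1 R206H + H3.1K27M. Its 3 ACVR1 WT samples differed by far less than those of *Cdkn1a*, with a coefficient of variation of 4.57% against 58.0%. *Cdkn1c*, the least expressed of the 10 genes, was at 1.76, 4.31 and 4.75 CPM in ACVR1 WT, 2.85, 3.11 and 2.57 CPM in ACVR1 R206H, 2.70, 3.05 and 2.74 CPM in ACVR1 WT + H3.1K27M, and 1.76, 1.58 and 1.09 CPM in ACVR1 R206H + H3.1K27M, which are 29 to 97 counts a sample. *Cdkn1c* was lowest in ACVR1 R206H + H3.1K27M and in ACVR1 WT replicate 1.

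Among the Ink4 inhibitors, the mean of *Cdkn2c* was lowest and that of *Cdkn2b* highest in ACVR1 R206H + H3.1K27M. *Cdkn2c* was at 70.3, 36.8 and 27.1 CPM in ACVR1 WT, 57.0, 46.1 and 52.7 CPM in ACVR1 R206H, 51.9, 48.8 and 46.5 CPM in ACVR1 WT + H3.1K27M, and 42.9, 44.5 and 41.8 CPM in ACVR1 R206H + H3.1K27M. Only the last group lay below both ACVR1 R206H and ACVR1 WT + H3.1K27M. *Cdkn2b* was at 15.8, 20.1 and 26.1 CPM in ACVR1 WT, 19.8, 17.7 and 18.4 CPM in ACVR1 R206H, 24.9, 25.0 and 25.3 CPM in ACVR1 WT + H3.1K27M, and 27.1, 26.3 and 29.5 CPM in ACVR1 R206H + H3.1K27M. All 3 samples of the last group lay above every other sample, and the ACVR1 WT samples were in the reverse order of the proliferation score. *Cdkn2a* ran from 17.7 to 25.2 CPM and *Cdkn2d* from 21.3 to 34.7 CPM over the 12 samples, both with their extremes in ACVR1 WT. Per length, *Cdkn2a*, *Cdkn2b*, *Cdkn2c* and *Cdkn2d* lay between 13.4 and 19.9 CPM per kb in the group means, and in ACVR1 WT + H3.1K27M the replicates of these 4 genes overlapped for every pair, while *Cdkn1a* was at 49.3, 66.9, 155 and 161 CPM per kb in ACVR1 WT, ACVR1 R206H, ACVR1 WT + H3.1K27M and ACVR1 R206H + H3.1K27M. *Cdkn1a* made up 63.1% ± 1.0 of the summed inhibitor level in ACVR1 WT + H3.1K27M and 63.6% ± 0.48 in ACVR1 R206H + H3.1K27M, against 32.4% ± 9.2 in ACVR1 WT and 40.6% ± 1.5 in ACVR1 R206H (SD, n = 3). With the longest transcript as length these shares were 72.6%, 73.1%, 42.6% and 51.5%.

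The effect of H3.1K27M was compared first in cells with ACVR1 R206H, whose replicates were close. *Cdkn1a*, *Cdkn2b*, *Ccnd1*, *Ccnd2* and *Ccnd3* rose, *Cdkn1b*, *Cdkn1c* and *Cdkn2c* fell, and *Cdkn2a* and *Cdkn2d* did not pass the test. These 8 of 10 stand beside 56.5% of all 15482 genes tested, a high background (edgeR's quasi-likelihood test, Benjamini-Hochberg adjusted p under 0.05). In the same comparison 8 of the 10 genes and 63.1% of all genes had groups that did not overlap in CPM. *Ccnd2* rose 4.05-fold (log2 2.02 ± 0.12 SE, adjusted p = 5.4e-08), *Cdkn1a* 2.42-fold (log2 1.28 ± 0.061, adjusted p = 1.2e-08) and *Ccnd1* 2.38-fold (log2 1.25 ± 0.10, adjusted p = 9.3e-07). *Cdkn2b* rose 1.496-fold (log2 0.58 ± 0.072, adjusted p = 2.7e-05) and *Ccnd3* 1.41-fold (log2 0.49 ± 0.052, adjusted p = 6.8e-06). *Cdkn1b* was 0.694 of its level without H3.1K27M (log2 -0.53 ± 0.048, adjusted p = 2.2e-06), *Cdkn1c* 0.518 (log2 -0.95 ± 0.21, adjusted p = 0.0023) and *Cdkn2c* 0.834 (log2 -0.26 ± 0.072, adjusted p = 0.0085). The 95% interval of the log2 difference was -0.21 to 0.079 for *Cdkn2a* and -0.034 to 0.26 for *Cdkn2d*. The median log2 fold change was 0.30 over the 10 genes and -0.0018 over all genes tested. The proliferation score was lower in all 3 samples with H3.1K27M here. With the score as a covariate the 5 rises remained and *Cdkn1b* was at -0.67 (adjusted p = 0.00030), while *Cdkn2c* was at 0.10 (adjusted p = 0.55) and *Cdkn1c* at -1.05 (adjusted p = 0.12). Taking all 12 samples in 1 fit ended the calls of *Ccnd1* (log2 1.24, adjusted p = 0.12) and *Cdkn2c* (log2 -0.27, adjusted p = 0.44).

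In cells with ACVR1 WT, *Cdkn1a* and *Ccnd3* rose with H3.1K27M and *Cdkn1b* fell. The 3 of 10 genes called compare with 23.0% of 15385 genes tested. Groups did not overlap for 5 of the 10, with *Ccnd1* and *Ccnd2* beside those called, against 45.2% of all genes. *Cdkn1a* rose 3.17-fold (log2 1.66 ± 0.38 SE, adjusted p = 0.025), *Ccnd3* rose 1.33-fold (log2 0.41 ± 0.089, adjusted p = 0.022; 0.41 and adjusted p = 0.057 with the replicate number as a block), and *Cdkn1b* was 0.646 of its level without H3.1K27M (log2 -0.63 ± 0.060, adjusted p = 0.0021; edgeR). *Ccnd2* was 5.45-fold higher (log2 2.45 ± 0.76, adjusted p = 0.063) and *Ccnd1* 3.88-fold higher (log2 1.96 ± 0.78, adjusted p = 0.12), differences that did not pass the threshold. *Ccnd2* did pass with DESeq2 (adjusted p = 0.027), with no filter on low counts (edgeR, adjusted p = 0.033) and with all 12 samples in 1 fit (edgeR, adjusted p = 0.0076), and *Ccnd1* in the last of these (adjusted p = 0.025). The others not past the threshold were *Cdkn1c* (log2 and 95% interval -0.34, -1.21 to 0.54), *Cdkn2a* (0.039, -0.41 to 0.48), *Cdkn2b* (0.29, -0.14 to 0.72), *Cdkn2c* (0.14, -0.65 to 0.94) and *Cdkn2d* (0.078, -0.39 to 0.54). The median log2 fold change was 0.22 over the 10 genes and -0.021 over all genes tested. Without ACVR1 WT replicate 1, *Ccnd2* was at log2 3.86 (adjusted p = 5.1e-06), *Ccnd1* at 3.45 (adjusted p = 1.2e-05) and *Cdkn1a* at 2.25 (adjusted p = 5.6e-07). *Cdkn2c* (0.63, adjusted p = 0.0032) and *Cdkn2d* (0.32, adjusted p = 0.022) were then also called higher and *Cdkn1c* lower (-0.67, adjusted p = 0.0081), so that 8 of the 10 genes were called, beside 8115 of 15432 genes in that fit. The ACVR1 WT samples left in that fit had proliferation scores of -0.65 and -1.46, against 0.16 to 0.21 with H3.1K27M. There 86 of the 97 S and G2/M genes were also called higher. Leaving out ACVR1 WT replicate 2 or 3 or any ACVR1 WT + H3.1K27M sample ended the call of *Cdkn1a* (log2 1.43 to 1.69), and leaving out ACVR1 WT replicate 2 or ACVR1 WT + H3.1K27M replicate 1 or 2 ended that of *Ccnd3* (0.35 to 0.42). With all ACVR1 WT samples kept, their proliferation scores lay on either side of those of ACVR1 WT + H3.1K27M, and with the score as a covariate *Ccnd2* was at 2.21 (adjusted p = 1.4e-07), *Ccnd1* at 1.73 (adjusted p = 4.5e-07), *Cdkn1a* at 1.42 (adjusted p = 1.1e-05) and *Cdkn2b* at 0.51 (adjusted p = 0.00054). *Cdkn1c*, *Cdkn2a*, *Cdkn2c* and *Cdkn2d* changed sign with that covariate. *Cdkn1b* was called under every alternative run here.

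**Figure D3:**
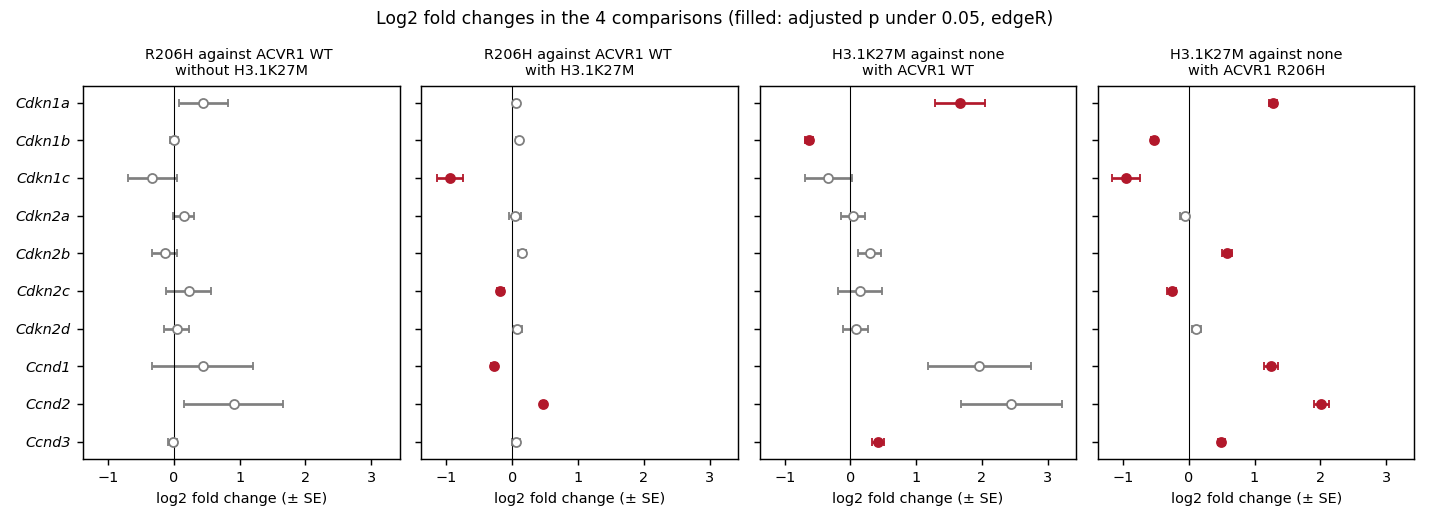
Log2 fold change (horizontal axis, bars are ± SE from edgeR, 3 samples against 3) of the 10 genes in the 4 comparisons (panels), filled where the adjusted p was under 0.05. The largest rise among those called is *Ccnd2* with H3.1K27M in ACVR1 R206H cells (2.02), and the bars are widest in the panels that use ACVR1 WT without H3.1K27M.

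The effect of R206H was compared within each H3.1K27M background. These comparisons share their samples with those above, so that the values are given side by side and no overlap is drawn. With H3.1K27M, *Ccnd2* rose 1.39-fold (log2 0.48 ± 0.042 SE, adjusted p = 7.5e-06), *Ccnd1* was 0.827 of its WT level (log2 -0.27 ± 0.046, adjusted p = 0.0011), *Cdkn1c* 0.519 (log2 -0.95 ± 0.20, adjusted p = 0.0052) and *Cdkn2c* 0.880 (log2 -0.18 ± 0.054, adjusted p = 0.031; edgeR). The 4 of 10 genes called, 1 up and 3 down, compare with 20.3% of 15672 genes tested, and 6 of 10 did not overlap between the groups against 36.8% of all genes. The median log2 fold change was 0.060 over the 10 genes and 0.0014 over all genes tested. *Cdkn1a* (log2 0.060, 95% interval -0.036 to 0.16), *Ccnd3* (0.059, -0.079 to 0.20), *Cdkn2a* (0.042, -0.17 to 0.25) and *Cdkn2d* (0.078, -0.072 to 0.23) did not pass. Nor did *Cdkn1b* (0.096, -0.00040 to 0.19) and *Cdkn2b* (0.15, 0.016 to 0.28), though their groups did not overlap. Every ACVR1 R206H + H3.1K27M sample had a lower proliferation score than every ACVR1 WT + H3.1K27M sample, so that the allele and the score are nearly 1 variable in this comparison, and with the score as a covariate no gene of the 10 was called, *Ccnd2* was at 0.17, *Ccnd1* at -0.58 and *Cdkn1c* at 0.20. Taking all 12 samples in 1 fit, whose spread includes ACVR1 WT, also ended the 4 calls at nearly the same log2 values (0.47 for *Ccnd2*, adjusted p = 0.78; -0.28 for *Ccnd1*, -0.95 for *Cdkn1c* and -0.19 for *Cdkn2c*). The call of *Cdkn2c* was lost with DESeq2 (log2 -0.19, adjusted p = 0.053) and, at log2 -0.14 to -0.19, without ACVR1 WT + H3.1K27M replicate 1 or 2 or ACVR1 R206H + H3.1K27M replicate 1 or 3.

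Without H3.1K27M, none of the 10 genes passed the test between ACVR1 R206H and ACVR1 WT, and 0% of 15066 genes were called by edgeR (534 at an unadjusted p under 0.05, and 26 by DESeq2). The groups overlapped for all 10, while 9.60% of all genes did not overlap. *Ccnd2* had a log2 fold change of 0.91 with a 95% interval of -0.90 to 2.72, *Cdkn1a* 0.45 (-0.45 to 1.35) and *Ccnd1* 0.44 (-1.43 to 2.30), whereas *Cdkn1b* (-0.0038, -0.15 to 0.15) and *Ccnd3* (-0.020, -0.18 to 0.14) were bounded closely. *Cdkn1c* was at -0.33 (-1.22 to 0.56), *Cdkn2a* at 0.15 (-0.23 to 0.52), *Cdkn2b* at -0.14 (-0.59 to 0.31), *Cdkn2c* at 0.22 (-0.60 to 1.04) and *Cdkn2d* at 0.043 (-0.42 to 0.50). The median log2 fold change was 0.095 over the 10 genes and -0.013 over all genes tested. Leaving out ACVR1 WT replicate 1 moved the count over all genes to 3485 of 15087, and then *Ccnd2* (log2 2.32, adjusted p = 0.0022), *Ccnd1* (1.93, adjusted p = 0.0033), *Cdkn1a* (1.04, adjusted p = 0.0018), *Cdkn2c* (0.72, adjusted p = 0.011) and *Cdkn2a* (0.34, adjusted p = 0.021) were higher in ACVR1 R206H and *Cdkn1c* lower (-0.66, adjusted p = 0.028). Each ACVR1 WT sample left in that fit had a lower proliferation score than every ACVR1 R206H sample. Without ACVR1 WT replicate 3 the value of *Ccnd1* was -0.018. With all 6 samples and the proliferation score as a covariate none of the 10 was called, with *Ccnd2* at 0.52 (edgeR, adjusted p = 0.087), *Ccnd1* at 0.055, *Cdkn1a* at 0.14, *Cdkn2a* at -0.0029 and *Cdkn2c* at -0.093. The interaction of R206H with H3.1K27M, which asks whether the effect of R206H differed between the H3.1K27M backgrounds, was called for none of the 10 genes and for 0.0712% of 15445 genes. It was -0.71 ± 0.83 for *Ccnd1* and -0.43 ± 0.80 for *Ccnd2* (log2 ± SE). For the others it was -0.39 for *Cdkn1a*, 0.10 for *Cdkn1b*, -0.61 for *Cdkn1c*, -0.10 for *Cdkn2a*, 0.29 for *Cdkn2b*, -0.40 for *Cdkn2c*, 0.036 for *Cdkn2d* and 0.083 for *Ccnd3*. Without ACVR1 WT replicate 1 it was -2.19 for *Ccnd1* (adjusted p = 8.6e-05), -1.84 for *Ccnd2* (adjusted p = 0.00019), -0.97 for *Cdkn1a*, -0.89 for *Cdkn2c* and 0.46 for *Cdkn2b*, all past the threshold, as were 4112 of 15459 genes in that fit.

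The members differed in how closely they followed the proliferation score over the 12 samples. The permutations moved all 12 samples freely, so that the p-values take no account of the groups. *Cdkn2c* followed it throughout, with a Pearson r of 0.976 and a Spearman rho of 0.993 (permutation test, adjusted p = 1e-04 over the 10 genes for both, from the smallest p that the permutations can give), and r was 0.983 without the 2 samples farthest from the median score, ACVR1 WT replicates 2 and 3. *Cdkn2d* had an r of 0.806 (permutation test, adjusted p = 0.0077) but a rho of 0.455 (adjusted p = 0.35) and an r of 0.449 without those samples. *Cdkn2a* had an r of 0.735 (permutation test, adjusted p = 0.0077), a rho of 0.643 (adjusted p = 0.097) and an r of 0.530 without them. For *Ccnd1* r was 0.713 (permutation test, adjusted p = 0.035; rho 0.273, adjusted p = 0.78) and turned to -0.315 without those samples, so that it rested on them. For *Ccnd2* r was 0.602 (permutation test, adjusted p = 0.072; rho 0.035, adjusted p = 0.92), turning to -0.637, and for *Cdkn1a* 0.508 (permutation test, adjusted p = 0.14; rho 0.056, adjusted p = 0.92), turning to -0.576. The deviations of *Ccnd1*, *Ccnd2* and *Cdkn1a* from their group means had an r of 0.989, 0.985 and 0.911 with those of the score, a description carried mostly by the 3 ACVR1 WT samples. This r was 0.989 for *Cdkn2c*, 0.901 for *Cdkn2d*, 0.744 for *Cdkn2a* and 0.049 for *Ccnd3*. It was -0.027 for *Cdkn1b*, -0.857 for *Cdkn1c* and -0.912 for *Cdkn2b*. *Cdkn2b* ran against the score (r -0.449, permutation test, adjusted p = 0.18; rho -0.650, adjusted p = 0.097; r -0.818 without the 2 samples), and for *Cdkn1b* and *Ccnd3* r was -0.145 and 0.094 (permutation test, adjusted p = 0.77 and 0.79; rho -0.091 and -0.147, adjusted p = 0.92 for both), turning to 0.593 and -0.621 without the 2 samples. For *Cdkn1c* r was -0.490 (permutation test, adjusted p = 0.16; rho -0.224, adjusted p = 0.80), turning to 0.272.

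**Figure D4:**
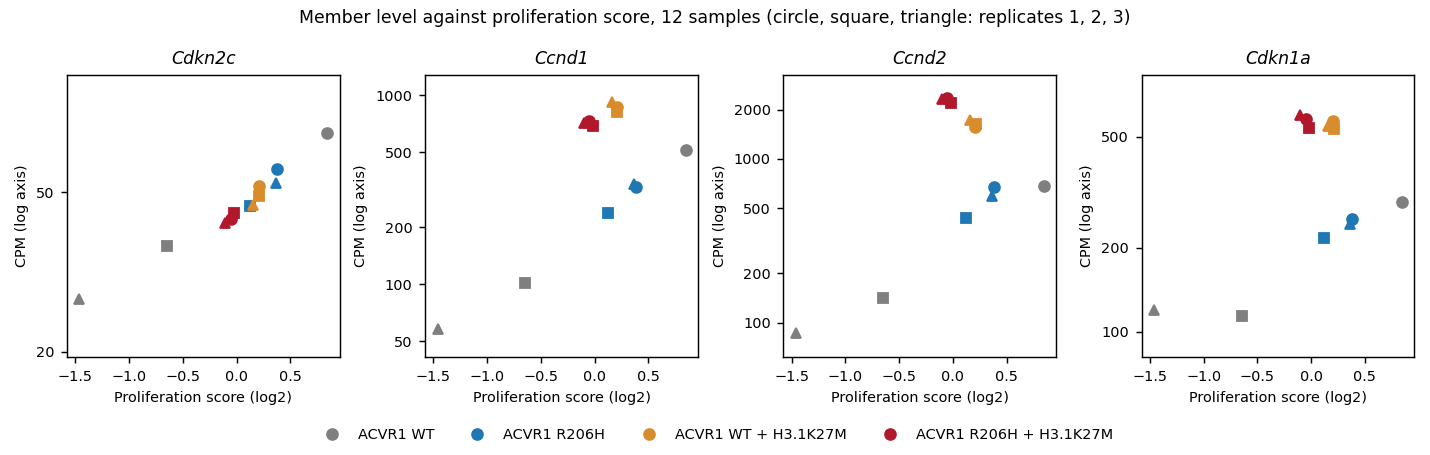
Level in CPM (vertical axes, log scale) of *Cdkn2c*, *Ccnd1*, *Ccnd2* and *Cdkn1a* against the proliferation score (horizontal axes, log2), 1 point a sample, coloured by group. *Cdkn2c* falls on 1 line over all 12 samples (r 0.976), while the 6 samples with H3.1K27M lie above those without it in *Ccnd1*, *Ccnd2* and *Cdkn1a* at similar scores.

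The genes of the pathway around the 10 were read from fixed lists, whose counts stand beside the 56.5%, 23.0%, 20.3% and 0% of all genes called for H3.1K27M with ACVR1 R206H, H3.1K27M with ACVR1 WT, R206H with H3.1K27M and R206H without it. Of 25 partners and targets at the G1/S step, 4 rose and 9 fell with H3.1K27M in ACVR1 R206H cells (median log2 -0.060), 0 rose and 1 fell in ACVR1 WT cells (median 0.18), 1 rose and 10 fell with R206H in the presence of H3.1K27M (median -0.11; none was called with all 12 samples in 1 fit or with the score as a covariate, and 4 to 8 fell without 1 sample), and none was called without it (median 0.14). Without ACVR1 WT replicate 1, when 8115 of 15432 genes were called for H3.1K27M with ACVR1 WT and 3485 of 15087 for R206H alone, 18 rose and 2 fell in the former and 13 rose in the latter. *Cdk4*, the kinase partner of the D cyclins, fell with H3.1K27M in ACVR1 R206H cells (log2 -0.68 ± 0.038 SE, adjusted p = 3.4e-08, edgeR), from 557 ± 2.1 to 345 ± 1.0 CPM. *Cdk6*, its sister kinase, named here after its values were seen, rose in that comparison (log2 0.58 ± 0.092, adjusted p = 0.00022), from 14.7 ± 2.1 to 21.8 ± 0.74 CPM. *Mnat1*, a subunit of the CDK-activating kinase, fell with H3.1K27M in both backgrounds (log2 -0.48 in each, adjusted p = 0.0093 with ACVR1 WT and 4.0e-05 with ACVR1 R206H). *Rb1*, the retinoblastoma gene, rose with R206H beside H3.1K27M (log2 0.39 ± 0.051, adjusted p = 0.00018), while *Ccne1* (-0.35) and *Ccna2* (-0.31), the cyclins of the S phase entry, fell.

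Genes of p53 and its targets, a list that does not hold *Cdkn1a*, moved with H3.1K27M in the same direction as *Cdkn1a*. Of 19, 17 rose and 2 fell in ACVR1 R206H cells (median log2 0.95), and 14 rose and none fell in ACVR1 WT cells (median 1.21), where 56.5% and 23.0% of all genes were called. The list rose in 18 of 19 genes in ACVR1 WT cells without ACVR1 WT replicate 1, and in 8 without ACVR1 WT replicate 2 or without any 1 of the ACVR1 WT + H3.1K27M samples. Over all genes 8115 of 15432 were called without ACVR1 WT replicate 1, 1445 of 15436 without replicate 2, and 1037 to 1189 without an ACVR1 WT + H3.1K27M sample. *Gdf15*, a stress-induced cytokine, went from 0.58 ± 0.23 to 22.1 ± 2.7 CPM in ACVR1 R206H cells (log2 5.24 ± 0.19 SE, adjusted p = 1.9e-09) and from 0.39 ± 0.21 to 17.9 ± 2.8 CPM in ACVR1 WT cells (log2 5.50 ± 0.33, adjusted p = 0.00076). *Perp* and *Pmaip1*, effectors of apoptosis, rose by log2 2.47 and 1.71 in ACVR1 R206H cells. *Trp53* itself, which is floxed in these mice, fell with H3.1K27M in ACVR1 R206H cells (log2 -0.32 ± 0.054, adjusted p = 0.00036), and was at 76.7 to 127 CPM over the 12 samples. With R206H beside H3.1K27M, 6 of the 19 rose and 1 fell (median 0.054; none was called with all 12 samples in 1 fit or with the score as a covariate, and 1 rose without ACVR1 WT + H3.1K27M replicate 2 and 2 without ACVR1 R206H + H3.1K27M replicate 3), led by *Btg2* (-0.33), an antiproliferative gene, and *Plk2* (0.26), and without H3.1K27M none of the 18 tested was called (median 0.30), though 17 were called higher without ACVR1 WT replicate 1.

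Of 16 Polycomb, Myc and other regulators of the 10 genes, 4 rose and 7 fell with H3.1K27M in ACVR1 R206H cells (median log2 -0.17), and 2 rose and 3 fell in ACVR1 WT cells (median -0.17), not far from the 56.5% and 23.0% of all genes. Without ACVR1 WT replicate 1, 5 rose and 6 fell in ACVR1 WT cells. *Bmi1*, the Polycomb repressor of the *Cdkn2a* locus, fell in both (log2 -0.55 ± 0.046 SE, adjusted p = 1.1e-06, with ACVR1 R206H; -0.63 ± 0.064, adjusted p = 0.0024, with ACVR1 WT), from 169 ± 8.0 to 115 ± 3.6 CPM and from 179 ± 9.4 to 115 ± 2.2 CPM. *Cdkn2a* itself was called in neither (log2 -0.064 with ACVR1 R206H and 0.039 with ACVR1 WT), nor with R206H beside H3.1K27M (0.042). *Cdkn2b*, at the same locus, rose with H3.1K27M in ACVR1 R206H cells (0.58) and was not called in ACVR1 WT cells (0.29). *Ezh2*, which methylates H3K27, fell in ACVR1 R206H cells (-0.57 ± 0.042, adjusted p = 3.9e-07). *Foxo3*, a transcription factor that activates *Cdkn1b*, rose with H3.1K27M in both (0.39 and 0.33), while *Cdkn1b* fell. With R206H beside H3.1K27M, 3 of the 16 rose and 3 fell (median 0.014; 1 and 1 with all 12 samples in 1 fit, and none with the score as a covariate), among them *Myc* (-0.49 ± 0.053, adjusted p = 3.6e-05) and *Hmga2* (0.69 ± 0.081, adjusted p = 7.0e-05), which represses the *Cdkn2a* locus in neural stem cells, and none was called without H3.1K27M (median -0.0058; 4 rose and 1 fell without ACVR1 WT replicate 1).

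The S and G2/M lists make up the score, so that their direction follows from it and is no separate result. Of 43 S phase genes 30 fell and of 54 G2/M genes 41 fell with R206H beside H3.1K27M (medians -0.24 and -0.27), with none called higher, led by *Cdca7* and *Mcm6* (S) and *Pimreg* and *Tpx2* (G2/M). With H3.1K27M in ACVR1 R206H cells, 21 S phase genes fell and 1 rose (median -0.18), and 50 G2/M genes fell and 2 rose (median -0.53), among them *Nasp* and *Ncapd2*, which fell, and *Psrc1*, which rose. These counts stand beside 20.3% and 56.5% of all genes called. The S phase count with H3.1K27M in ACVR1 R206H cells was near the 56.5%. Taking all 12 samples in 1 fit left 0 of the 97 genes called lower with R206H beside H3.1K27M and 5 with H3.1K27M in ACVR1 R206H cells, at similar medians (-0.25 and -0.28, and -0.19 and -0.54). With ACVR1 WT 0 of the S phase genes and 1 of the G2/M genes, *Cbx5*, was called (medians 0.43 and 0.15), and none with R206H alone (medians 0.37 and 0.42). Without ACVR1 WT replicate 1, 86 of the 97 genes of both lists rose with H3.1K27M in ACVR1 WT cells and 89 rose with R206H alone.

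By the measure of the highest Pearson r of log2 CPM over the 12 samples among 15435 genes, the gene most like each member was *Ak1* for *Cdkn1a* (0.998), *Bmi1* for *Cdkn1b* (0.989), *Gm20036* for *Cdkn1c* (0.950), *Lrwd1* for *Cdkn2a* (0.914), *Plekhb2* for *Cdkn2b* (0.980), *Kpna2* for *Cdkn2c* (0.990), *Zw10* for *Cdkn2d* (0.940), *Dglucy* for *Ccnd1* (0.997), *Plk2* for *Ccnd2* (0.997) and *Rab7* for *Ccnd3* (0.988). These are descriptions over samples that share groups and the spread of ACVR1 WT. The reads were counted without strand, and 5 of the 10 genes share exon bases with a gene on the opposite strand, from which reads were left out as ambiguous: *Cdkn1a* with *AC167363.2*, *Cdkn1c* with *Gm44732*, *Ccnd1* with *LTO1*, *Ccnd2* with *Gm43126* and *9330179D12Rik*, and *Ccnd3* with *Bysl*. The counts of those neighbours were at most 52, 0, 499, 2, 40 and 1221 in a sample.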

How the data were processed

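Brainstem progenitors were profiled by paired-end RNAseq in 12 samples, 3 in each of 4 groups. The authors aligned reads to mm10 (GRCm38) with STAR (2.6.0b-1 per the labels) in Galaxy and counted them per Ensembl gene with HTSeq-count, without strand, leaving out ambiguous and multiply mapped reads. The deposited values are raw counts per gene and sample, neither normalized nor pooled. GENCODE M21 holds 54495 of the 54532 genes listed. Total counts were 19315020 to 26456257 (median 20994196), with 22473 to 25207 genes counted, and all replicate pairs differed by more than sampling noise. The study describes its cultures as coming from independent litters, but no label ties a sample to a litter, so that p-values measure the spread between these samples.

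From these counts, edgeR (4.0.16, R 4.3.3, limma 3.58.1) was used for TMM scaling and quasi-likelihood tests, with genes kept whose normalized counts averaged 10 or more. The 95% intervals used the t quantile of the fit's degrees of freedom. Each comparison was fitted on its own 6 samples and the interaction on all 12, with Benjamini-Hochberg adjusted p under 0.05 over all genes tested. DESeq2 (1.42.0), its size factors, other count filters, a replicate block, the proliferation score as a covariate, 1 fit of all samples and leaving out each replicate were tried as alternatives. Log2 CPM used a prior count of 1. The score took 97 genes (43 of S phase, 54 of G2/M, from Seurat 5.3.0), and correlations used 100000 permutations. Promoter windows came from RefSeq (GRCm38.p6) and transcripts from GENCODE. Fits were tested on simulated data. The 10 genes and all lists were chosen with earlier results of these data known. All 10 genes are named in each comparison, and of each other list the 3 or fewer genes with the smallest adjusted p among those called, beside *Mki67*, *Pcna*, *Top2a*, *Id1*, *Trp53* and the gene most like each of the 10. *Cdk6* and the shares within the D cyclins and within the inhibitors were added after values were seen.

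Replicate numbers were checked for pairing by the correlation of same-numbered samples' deviations from their group means, which ran from -0.117 to 0.346 over the 4 comparisons and exceeded 0.1 for all pairs in none, so that the numbers were not taken to pair samples.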

Additional observations from a re-analysis of the deposited data

How the results depend on the processing

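Over the 5 contrasts, the log2 fold changes of the 10 genes kept direction and call in 310 of the values without 1 sample (16 gained a call, 12 lost it and 22 changed sign) and in 298 of those under other alternatives (7, 11 and 22). Genes called without 1 sample numbered 0 to 3485 for R206H without H3.1K27M, 1915 to 2966 for R206H with it, 1037 to 8115 for H3.1K27M with ACVR1 WT, 7589 to 8350 for H3.1K27M with ACVR1 R206H and 3 to 4112 for the interaction, the highest each time ACVR1 WT is used being without its replicate 1. Signs changed there for R206H without H3.1K27M in *Ccnd1* (-0.018 to 1.93), *Ccnd3* (-0.068 to 0.0068), *Cdkn1b* (-0.030 to 0.031), *Cdkn2b* (-0.30 to 0.063), *Cdkn2c* (-0.036 to 0.72) and *Cdkn2d* (-0.092 to 0.29). With H3.1K27M they did for *Ccnd3* (-0.0064 to 0.13) and *Cdkn2a* (-0.059 to 0.17). For H3.1K27M with ACVR1 WT they did for *Cdkn2a* (-0.079 to 0.23), *Cdkn2c* (-0.11 to 0.63) and *Cdkn2d* (-0.054 to 0.32), and for the interaction for *Ccnd2* (-1.84 to 0.0062), *Cdkn2a* (-0.29 to 0.023) and *Cdkn2d* (-0.20 to 0.17).

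With the proliferation score as a covariate 80, 3, 6908, 4254 and 229 genes were called, in the same order of contrasts. The score nearly follows the groups wherever ACVR1 R206H + H3.1K27M is compared. Signs then turned for R206H without H3.1K27M in *Cdkn1c* (0.22), *Cdkn2a* (-0.0029), *Cdkn2b* (0.098), *Cdkn2c* (-0.093) and *Cdkn2d* (-0.15), and with it in *Cdkn1a* (-0.21), *Cdkn1b* (-0.14), *Cdkn1c* (0.20), *Cdkn2b* (-0.24) and *Cdkn2c* (0.17). They turned for H3.1K27M with ACVR1 WT in *Cdkn1c* (0.15), *Cdkn2a* (-0.092), *Cdkn2c* (-0.11) and *Cdkn2d* (-0.086), with ACVR1 R206H in *Cdkn2c* (0.10), and for the interaction in *Cdkn1a* (0.069), *Cdkn2a* (0.11), *Cdkn2b* (-0.024), *Cdkn2c* (0.066), *Ccnd1* (0.020) and *Ccnd2* (0.29). DESeq2 called 26 genes for R206H without H3.1K27M and 96 for the interaction. All 12 samples in 1 fit gave 11, 440 and 6335 calls in the first 3 contrasts. Without a filter the interaction had 18 calls and *Cdkn2d* turned to -0.0053.

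The replicate block gave 0, 3335, 2023, 8606 and 2 calls in the 5 contrasts; *Ccnd3* with H3.1K27M in ACVR1 WT cells lost its call (log2 0.41, adjusted p = 0.057) and no other call of the 10 genes changed. Every sample correlated best with its own number in that contrast only, a hint from the data and not the design. Without the 2 samples farthest from the median score, r was -0.576 for *Cdkn1a*, 0.593 for *Cdkn1b*, 0.272 for *Cdkn1c*, -0.315 for *Ccnd1*, -0.637 for *Ccnd2* and -0.621 for *Ccnd3*, all of the opposite sign. The cause of these changes was not tested. *Cdkn1c* had the fewest counts of the 10 genes, 29 to 97 in a sample.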
